A study of Mus musculus with 6 samples.

Results

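The genes described are those of the mitochondrial respiratory chain and ATP synthase in the mouse lens. They were chosen by gene symbol alone: every probe whose annotated symbol begins with Nduf, Sdha, Sdhb, Sdhc, Sdhd, Uqcr, Cyc1, Cox4, Cox5, Cox6, Cox7, Cox8 or Atp5 was taken, whatever its value. This gave 112 probes for 90 genes, of 25697 probes and 16593 named genes on the array. Lens RNA was hybridised to Illumina BeadChips, on which a probe is a short DNA strand fixed to a set of beads and its signal is the brightness of the labelled RNA bound there. The lenses came from 3 mice homozygous for Fgf9 Y162C, a single amino acid change in the secreted growth factor FGF9, and from 3 wild-type mice. All 6 mice were C57BL/6J and 18 weeks old, and each array held RNA of 1 mouse. By the labels, the homozygotes were 2 females and 1 male, and the wild-type mice were 1 female and 2 males. The question is whether transcripts of the respiratory chain differ between lenses of the 2 genotypes.

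The respiratory chain sits in the inner mitochondrial membrane. Complex I takes electrons from NADH and complex II takes them from succinate, ubiquinone carries them to complex III, cytochrome c carries them on to complex IV, and complex IV passes them to oxygen. Complexes I, III and IV pump protons as they do so, and ATP synthase, complex V, lets the protons flow back to make ATP. A few subunits are encoded in mitochondrial DNA and the others in the nucleus. The genes described here are nuclear. In the lens, epithelial cells and young outer fibre cells hold mitochondria, while fibre cells lose them with their other organelles as they mature, and the tissue has no blood vessels and relies largely on glycolysis.

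After quantile normalization, which gives all arrays the same distribution of signal, differences in respiratory chain transcripts between the genotypes were small in value. No member passed the test, limma with p-values adjusted over all 8618 tested probes: 0 rose and 0 fell of the 75 members whose probes were above background on at least 3 of the 6 arrays. The median log2 fold change of the 75 was -0.0083 (0.994-fold), with a middle range of -0.09 to 0.12, and 37 members lay above 0 and 38 at or below it. The whole array gives the background: 28 of 6430 tested genes passed (0.435%), 7 upward and 21 downward, and their median was 0.

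The largest differences among the members were small. They ran over log2 fold changes of -0.37 for Atp5l to 0.32 for Ndufa1, and 36 members lay within 0.1 of 0. At an unadjusted p under 0.05, 4 of the 75 members were found (5.33%), against 9.14% of all tested genes. The genotypes did not overlap in 8 members (10.7%), 4 of them higher and 4 lower in the homozygotes, against 15.1% of all tested genes. Both shares lie below those of the array as a whole.

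The limits of the measurement can be given as intervals. The 95% confidence interval of the fold change, taken gene by gene without adjustment, lay inside 1.5-fold in either direction for 68 of the 75 members (90.7%), against 3786 of all 6430 tested genes (58.9%).  The other 7 intervals, which reached past 1.5-fold, were those of Ndufb9, Ndufaf1, Sdhaf2, Uqcrb, Atp5pb, Atp5l and Atp5o. An interval says which fold changes, after quantile normalization, the data of 3 mice a group leave possible for a gene. It is not a detection limit, and it does not bound a change shared by most transcripts, which that normalization removes. The members' median standard error was 0.133 on the log2 scale, against 0.18 over all tested genes, and 54 of the 75 members (72%) had probes in the brightest quintile of tested genes.

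**Figure D1:**
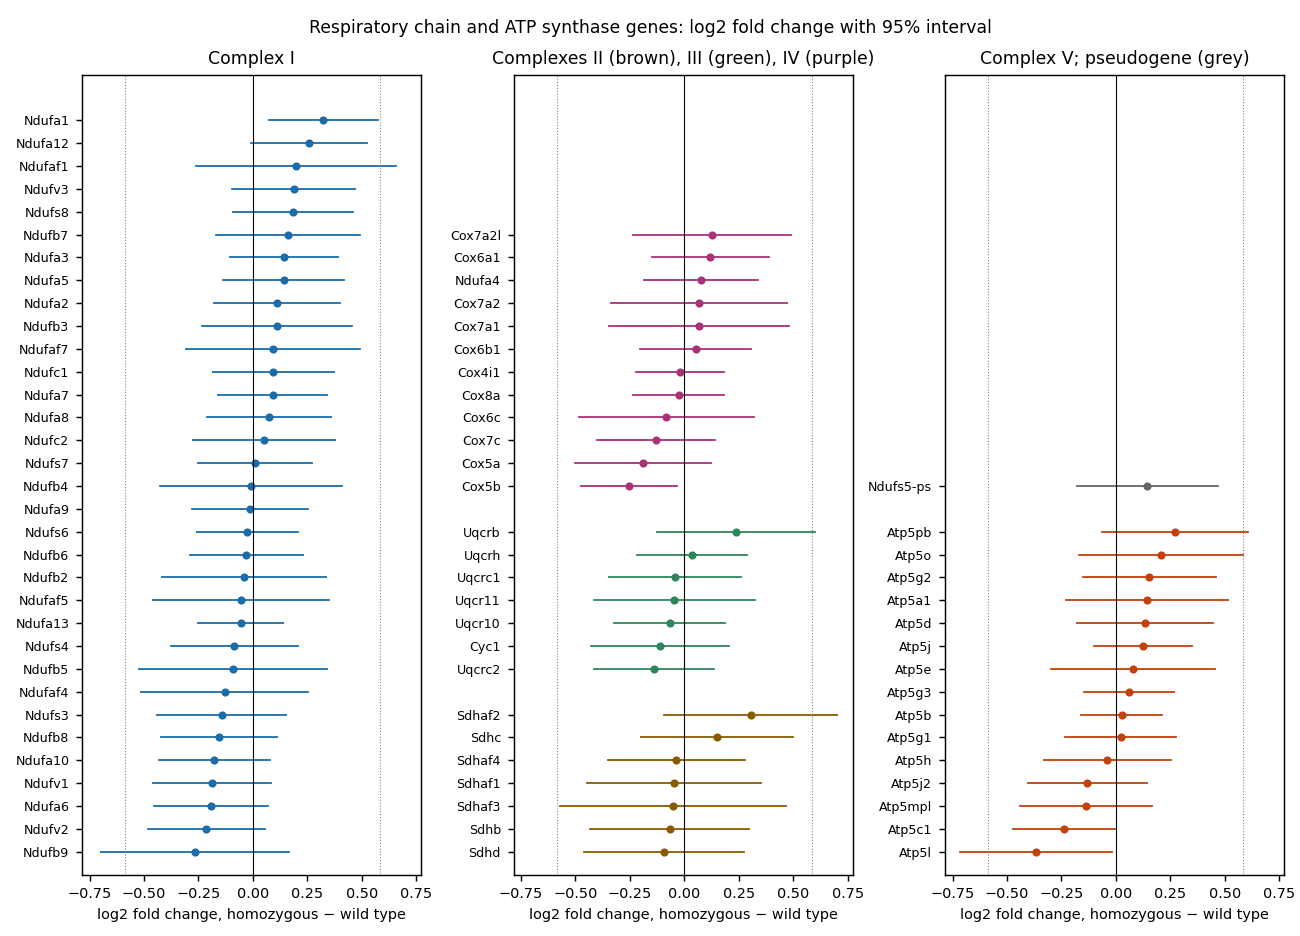
Log2 fold change of homozygous minus wild-type lenses for the 75 tested members, grouped by complex, with 95% confidence intervals from limma and dotted lines at 1.5-fold in either direction. The points lie on both sides of 0 in every complex, between -0.37 and 0.32, and 0 members passed the test.

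**Figure D2:**
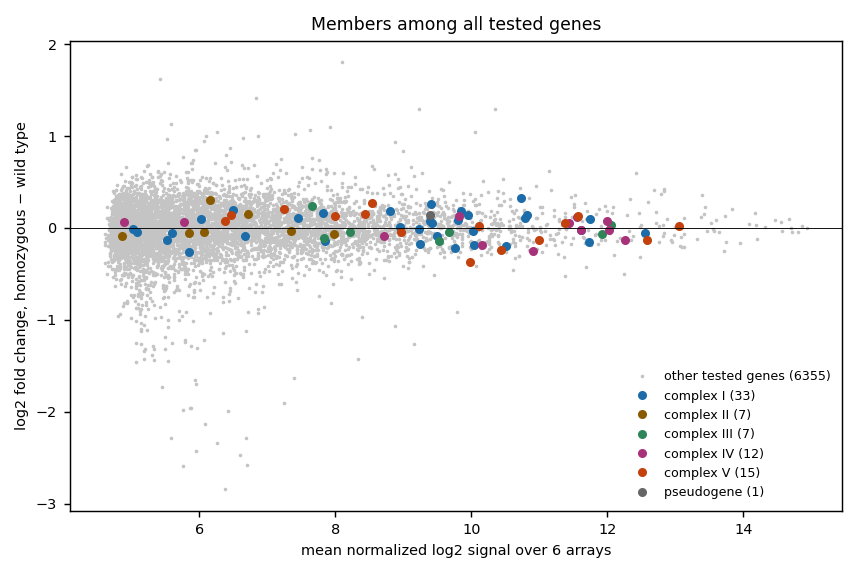
Log2 fold change, homozygous minus wild type, against the mean normalized log2 signal over the 6 arrays, with 1 point per tested gene, the 75 members coloured by complex and the 6355 other genes in grey. The members lie between -0.37 and 0.32, while all tested genes reach from -2.84 to 1.80.

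Complex I oxidises NADH and is the largest complex of the chain, with catalytic core subunits that hold the iron-sulphur clusters and flavin, many accessory subunits around them, and assembly factors that are not part of the finished enzyme. Of 38 complex I genes, 33 were tested, and their median log2 fold change was -0.0083, with 16 above 0 and 17 at or below it. The 5 tested core subunits had a median of -0.14, the 24 accessory subunits 0.021 and the 4 assembly factors 0.020. The member with the smallest p of all was Ndufa1, an X-linked accessory subunit of the membrane arm. Its probe had log2 values of 11.01, 10.76 and 10.90 in homozygous lenses, against 10.69, 10.42 and 10.59 in wild-type lenses. The groups did not overlap, and the log2 fold change was 0.32 ± 0.11 (SE, n = 3 mice per group), or 1.251-fold, with an adjusted p of 0.41 in limma. Ndufa1 therefore did not pass.

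Ndufa12, an accessory subunit, had log2 values of 9.59, 9.66 and 9.34 in homozygous lenses, against 9.31, 9.24 and 9.27 in wild-type lenses. All 3 homozygous values were higher, with a log2 fold change of 0.26 ± 0.12 (SE) and an adjusted p of 0.577 in limma. Values of the core subunits at the NADH site lay below 0. Ndufv2, which carries an iron-sulphur cluster beside the NADH site, had 9.74, 9.46 and 9.74 in homozygous lenses, against 9.74, 9.90 and 9.94 in wild-type lenses. The groups of Ndufv2 were apart only narrowly, since the highest homozygous values lay just under the lowest wild-type value, and its log2 fold change was -0.21 ± 0.12 (SE; adjusted p = 0.634 in limma). Its partner Ndufv1, the subunit that binds NADH and flavin, had a log2 fold change of -0.19 and overlapping groups. The core subunit Ndufs3 had -0.14, while Ndufs7 and Ndufs8, which carry clusters nearer to ubiquinone, had 0.011 and 0.18. None of the 5 core subunits passed. Ndufv1, Ndufs3, Ndufs7 and Ndufs8 are named here after their values were seen.

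The remaining accessory subunits spread around 0. Ndufa6, a subunit of the LYR protein family, averaged 10.41 ± 0.18 in homozygous and 10.60 ± 0.10 in wild-type lenses (SD, n = 3 each). Ndufa13, also known for a role in cell death, averaged 12.53 ± 0.034 in homozygous and 12.58 ± 0.081 in wild-type lenses. Ndufc1 averaged 11.80 ± 0.17 in homozygous and 11.70 ± 0.21 in wild-type lenses. None of the 3 passed. Ndufa10, a further subunit whose 3 homozygous values lay below the wild-type ones and which is named for that reason, had -0.18 ± 0.12 (SE; adjusted p = 0.674 in limma). Of the assembly factors, Ndufaf1 had the largest value, 0.20, and its wild-type values varied with an SD of 0.41. A probe annotated to the pseudogene Ndufs5-ps was kept apart from the complex and had a log2 fold change of 0.14, which did not pass.

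Complex II is succinate dehydrogenase, an enzyme of both the citric acid cycle and the respiratory chain. All 7 of its members were tested, 3 subunits and 4 assembly factors, with a median log2 fold change of -0.048. Sdhb, the iron-sulphur subunit, averaged 7.94 ± 0.32 in homozygous and 8.01 ± 0.061 in wild-type lenses. The membrane anchors Sdhc and Sdhd had log2 fold changes of 0.15 and -0.093, and the Sdhd probe was above background on 1 of 3 homozygous arrays and on 3 of 3 wild-type arrays. Its signals were 97.4, 96.3 and 85.2 on homozygous arrays, against 100.8, 107.6 and 98.1 on wild-type arrays, so it lay close to background throughout. The catalytic subunit Sdha was not analysed here.

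Sdhaf2, which helps to attach flavin to the catalytic subunit, had log2 values of 6.27, 6.15 and 6.53 in homozygous lenses, against 6.12, 6.10 and 5.82 in wild-type lenses. The groups did not overlap, with a log2 fold change of 0.30 ± 0.18 (SE) and an adjusted p of 0.652 in limma. The other assembly factors, Sdhaf1, Sdhaf3 and Sdhaf4, had values between -0.052 and -0.038. The 95% interval of Sdhaf2 ran from -0.094 to 0.70.

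Complex III passes electrons from ubiquinol to cytochrome c. Of its 9 genes 7 were tested, with a median log2 fold change of -0.046, 2 above 0 and 5 at or below it. Cyc1, cytochrome c1, which hands the electron to cytochrome c, averaged 7.78 ± 0.18 in homozygous and 7.90 ± 0.094 in wild-type lenses. Uqcrc2, a core structural subunit, averaged 9.46 ± 0.054 in homozygous and 9.60 ± 0.19 in wild-type lenses. Both differences, -0.11 and -0.14, did not pass. Uqcrb, a small subunit near the ubiquinone site, had the largest value of the complex, 0.24 ± 0.17 (SE; adjusted p = 0.697 in limma). Uqcrh, the hinge subunit beside cytochrome c1, averaged 12.07 ± 0.19 in homozygous and 12.03 ± 0.13 in wild-type lenses. Uqcr10, a small membrane subunit, had -0.067 on one probe and 0.15 on a second. The Rieske iron-sulphur subunit Uqcrfs1 was above background on 0 of 6 arrays.

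Complex IV, cytochrome c oxidase, reduces oxygen to water. Its nuclear genes include tissue-specific isoforms, which makes detection itself of interest. Of 19 genes 12 were tested, Ndufa4 among them, whose protein is found with complex IV despite its name. Their median log2 fold change was 0.015, with 6 above 0 and 6 at or below it, and it was -0.093 under median centring and -0.050 under cyclic loess. Cox5b, a subunit on the matrix side, had log2 values of 10.76, 10.82 and 10.75 in homozygous lenses, against 11.11, 10.91 and 11.07 in wild-type lenses. All 3 homozygous values were lower, and the log2 fold change was -0.25 ± 0.10 (SE), or 0.838-fold, with an adjusted p of 0.464 in limma. Cox5a, its neighbour in the enzyme, averaged 10.06 ± 0.18 in homozygous and 10.25 ± 0.24 in wild-type lenses. Neither passed, and the groups of Cox5a overlapped.

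Isoform pairs of complex IV differed in detection. Over the whole array, 7816, 8396 and 8141 probes were above background on homozygous arrays, against 8713, 9671 and 9214 on wild-type arrays. Every homozygous array thus had fewer than every wild-type array, whatever the gene. Cox4i1, Cox6a1, Cox6b1 and Cox8a were above background on all 6 arrays, with log2 fold changes of -0.021, 0.12, 0.052 and -0.026. Their counterparts Cox4i2, known from lung, Cox6a2, known from heart and skeletal muscle, and the testis isoform Cox8c were above background on 0 arrays. The testis isoform Cox6b2 was above background on 0 homozygous and 2 wild-type arrays. The muscle isoform Cox8b was above background on 1 array of each genotype. In the Cox7b pair both probes were dim: the generally expressed Cox7b was above background on 0 homozygous and 2 wild-type arrays, and the testis isoform Cox7b2 on 0 arrays. In the Cox7a family the muscle isoform Cox7a1 was above background on 2 of 3 arrays of each genotype. Cox7a2 and Cox7a2l were above background on all 6. All 3 differed by less than 0.13 on the log2 scale. The Cox4i2 signals of 82.0 to 91.4 in homozygous and 87.7 to 94.2 in wild-type lenses gave no fold. Ndufa4 and Cox7c had log2 fold changes of 0.076 and -0.13.

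Complex V is ATP synthase, with a catalytic F1 head, a rotating ring of c subunits in the membrane, a peripheral stalk that holds the head still, and further small membrane subunits that shape the cristae. Of 16 genes 15 were tested, with a median log2 fold change of 0.059, 10 above 0 and 5 at or below it. Atp5l, subunit g of the membrane part, had log2 values of 9.65, 9.87 and 9.87 in homozygous lenses, against 9.81, 10.49 and 10.18 in wild-type lenses. The groups overlapped: wild-type replicate 1 lay below 2 of the homozygous lenses. Its log2 fold change was -0.37 ± 0.16 (SE), or 0.776-fold, with an adjusted p of 0.531 in limma. Without wild-type replicate 1 the value was -0.54 with an adjusted p of 0.0675, the smallest of any member under the alternatives that kept a normalization between arrays.

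Atp5c1, the gamma subunit that forms the rotating shaft of the head, had 10.40, 10.28 and 10.27 in homozygous lenses, against 10.45, 10.66 and 10.56 in wild-type lenses. The groups did not overlap, with a log2 fold change of -0.24 ± 0.11 (SE; adjusted p = 0.55 in limma). Atp5pb, subunit b of the peripheral stalk, had 8.80, 8.63 and 8.59 in homozygous lenses, against 8.57, 8.09 and 8.54 in wild-type lenses. All 3 homozygous values were higher, by 0.27 ± 0.15 (SE; adjusted p = 0.634 in limma). Atp5b, the catalytic beta subunit, averaged 13.07 ± 0.063 in homozygous and 13.04 ± 0.016 in wild-type lenses, and its 95% interval of -0.16 to 0.21 was the narrowest of all members.

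Sorted by the parts of the enzyme, a division made after the values were seen, no part held a member that passed. The 5 subunits of the head had a median log2 fold change of 0.079, the 3 genes of the c ring 0.059, the 4 of the peripheral stalk 0.17 and the 3 other tested membrane subunits -0.14. Those last 3 were Atp5l, Atp5mpl and Atp5j2, all below 0. Atp5j, coupling factor 6 of the stalk, had 0.13.

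**Figure D3:**
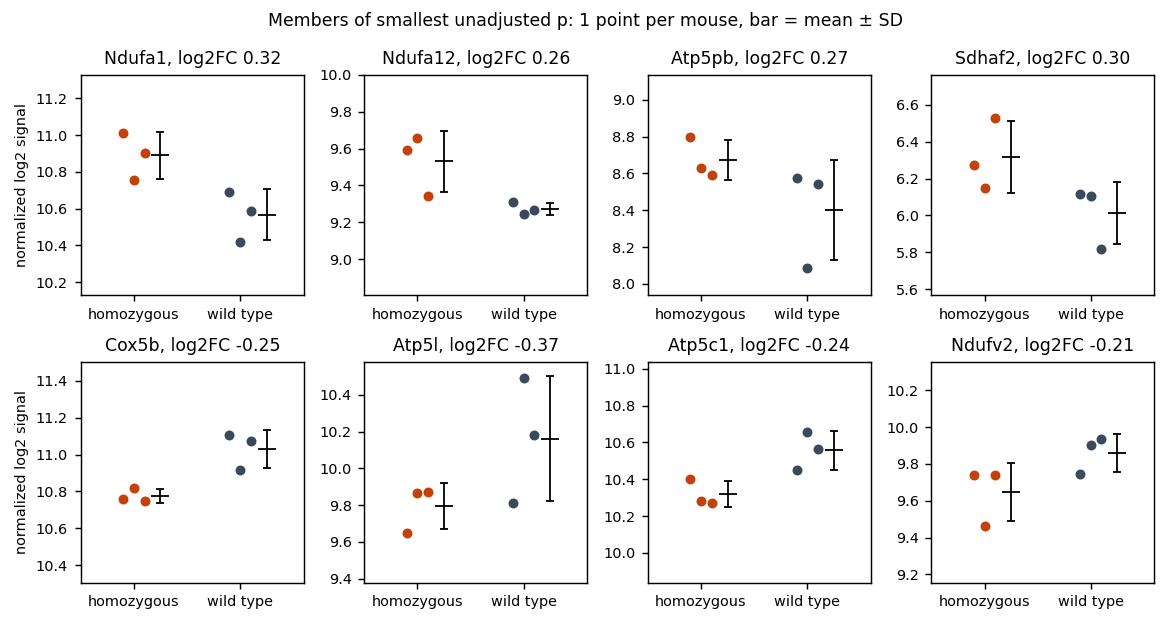
Log2 values of the 8 members with the smallest unadjusted p in each of the 6 lenses, homozygous left of wild type, 1 point per mouse, with bars for the mean ± SD of each group. The groups do not overlap for 7 of them and overlap for Atp5l, and none passed the test.

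The 15 members that were not tested were close to background in both genotypes. Of these, 9 were above background on 0 arrays, 3 on 1 array and 3 on 2 arrays, with signals between 71.8 and 122.2. They were Ndufab1, Ndufb10, Ndufb11, Ndufaf3 and the core subunit Ndufs1 of complex I, Uqcrfs1 and Uqcrq of complex III, Cox4i2, Cox6a2, Cox6b2, Cox7b, Cox7b2, Cox8b and Cox8c of complex IV, and Atp5k of complex V. Several of them are subunits without which their complex does not work, and a probe not well above background gives only an upper bound on its transcript. Among the tested members 71 were above background on all 6 arrays, and Sdhd, Ndufb2, Ndufb4 and Cox7a1 on fewer. Of 11 members with several tested probes, 4 had probes that differed in sign, Ndufa8, Ndufc1, Sdhb and Uqcr10, with a largest difference of 0.32 between the probes of Ndufa8. The 4 probes of Ndufs4 ran from -0.36 to -0.086, and the brightest of them stood for the gene. Many of these genes have processed pseudogenes with near-identical sequence, and the probe sequences were not used here, so reads of such copies by a probe cannot be judged.

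The lenses of a group did not move together across the complexes. After normalization the median deviation of the members from their own means was -0.02, 0.044 and -0.024 on the homozygous arrays, against -0.02, -0.003 and 0.061 on the wild-type arrays. For complex III the array medians ran from -0.064 to -0.016 on homozygous arrays and from -0.10 to 0.13 on wild-type arrays. Between pairs of members, the correlation over the 6 arrays had a median of 0.024 over 2775 pairs, with a middle range of -0.34 to 0.387. With 6 arrays that share their normalization these correlations are a description.

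**Figure D4:**
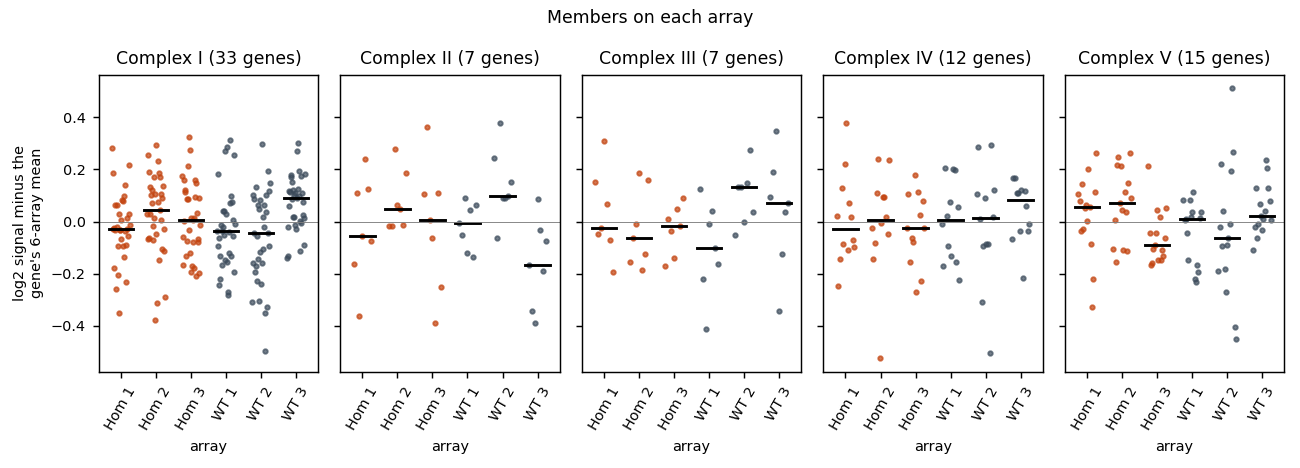
Quantile normalized log2 signal of each tested member minus its own mean over the 6 arrays, 1 point per gene, in a panel for each complex. Homozygous arrays (Hom) are left of wild-type arrays (WT), with a bar at the median of each array. Array medians run from -0.09 to 0.071 on homozygous arrays and from -0.17 to 0.13 on wild-type arrays, and in every panel those of the genotypes overlap.

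The size of the difference depended on whether the arrays were set to a common scale. Mean signal on the homozygous arrays was 164.8, 165.7 and 161.6, against 194, 200.4 and 191 on the wild-type arrays, and the deposited signals of the members had medians of 630.8, 690.1 and 610.5 on homozygous arrays, against 787.1, 863.7 and 923.7 on wild-type arrays. Every homozygous array was dimmer than every wild-type array. With background correction but no normalization between arrays, an alternative chosen after the data were seen, all 75 members lay below 0, with a median of -0.44 (0.738-fold), and 34 passed downward (45.3%) and 0 upward. In that setting 91.1% of all tested genes also lay below 0, with a median of -0.36 (0.78-fold), 1314 passed downward (20.4%) and 6 upward. The members' median lay 0.081 below that of all tested genes there, and Ndufa1, Ndufa12, Atp5pb and Sdhaf2, which were above 0 after quantile normalization, stood at -0.13, -0.22, -0.22 and -0.13. Array brightness and genotype cannot be told apart in 6 arrays, and a change that reached most transcripts would be removed by normalization.

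Members were also set beside genes with probes of like brightness. In the brightest quintile of tested genes, which held 54 members, the median without normalization was -0.50 for the members and -0.46 for all tested genes. There 49.8% of all genes passed downward, and so did 33 of the 54 members, a larger share. After quantile normalization the same medians were -0.017 for the members and 0.006 for all tested genes.

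**Figure D5:**
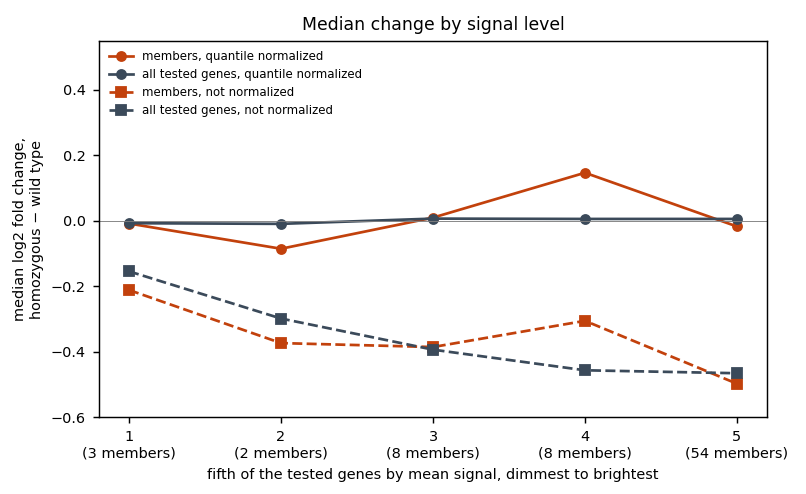
Median log2 fold change, homozygous minus wild type, of the members and of all tested genes in each quintile of probe brightness, with quantile normalization and without normalization between arrays. The 4 dimmer quintiles hold 2 to 8 members each, too few to read an order from, and in the brightest quintile with 54 members both pairs of lines lie close together.

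Other cell types in the sample were counted beside these values. Summed signals are sums of quantile normalized values on the linear scale. That normalization gives every array the same distribution, so sums over the brightest genes, the fibre markers among them, are held close together. The 12 tested lens fibre markers held no gene that passed, and their summed signal was 199000 to 206000 in homozygous and 194000 to 198000 in wild-type lenses. In the lens epithelium list 1 of 5 tested genes rose, the water channel Aqp1, with a log2 fold change of 1.3. All 5 had values above 0, but those of Pdpn and Krt18 were 0.0091 and 5e-04. Gja1 and Cdh1 had 0.25 and 0.39 and did not pass. The summed signal was 3950 to 4580 in homozygous and 2400 to 3260 in wild-type lenses, without overlap. A sum without Aqp1 was not taken, so this separation does not show a shift of the whole list. Of 5 tested inner retina and glia markers 4 fell, with summed signals of 125 to 150 in homozygous and 373 to 615 in wild-type lenses. These 4 entered the test through the wild-type arrays: Slc17a6 was above background on 0 homozygous arrays, Calb2, Slc1a3 and Sncg on 1 each, and all 4 on 3 wild-type arrays. Of 4 tested macrophage markers 1 fell, Laptm5, which likewise was above background on 0 homozygous and 3 wild-type arrays. The same counts held for C1qb and Fcer1g, which did not pass. The macrophage sum was 94.5 to 118 in homozygous and 159 to 247 in wild-type lenses.

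Photoreceptor markers, which mark retinal cells rich in mitochondria, had no passing gene among 13 tested, but all 13 values lay below 0, with a median log2 fold change of -0.56. Their summed normalized signal was 2460 to 4960 in homozygous lenses and 2620 to 14400 in wild-type lenses, with the highest value in wild-type replicate 2. In wild-type replicates 1 and 3 the sums were 2621 and 3474, inside the homozygous range. Only for Rcvrn did the groups not overlap, and it entered the test through 3 wild-type arrays, with 0 homozygous arrays above background. The 13 values below 0 are thus not a drop seen against every wild-type lens. Without wild-type replicate 2, 0 members passed and the members' median was -0.0022. Of 5 tested pigment cell markers 0 passed and 4 lay below 0, with sums of 128 to 180 in homozygous and 186 to 274 in wild-type lenses. Tyrp1 and Mlana were above background on 0 homozygous arrays and Dct on 1, and each of them on 3 wild-type arrays. They thus entered the test through the wild-type arrays. The haemoglobin gene Hba-a1, the only erythrocyte marker tested, had -2.29 and did not pass (adjusted p = 0.159 in limma). Of 2 tested striated muscle markers 0 passed. The part these cells have in the members' values was not tested. In bulk RNA, fewer cells of a type and less RNA per cell cannot be told apart.

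Fgf9 itself could not check the labels, because its probe was not above background on any array (signals of 74.8 to 87.7). Whether that probe covers the changed base is not known, since probe sequences were not used. On the array of wild-type replicate 3, a male by its label, Xist (expressed from the inactive X chromosome) exceeded background and the Y-linked Eif2s3y did not. With sex as labelled in the fit, 0 members passed.

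Genes of the wider pathway were counted in 8 further lists. Of 81 tested genes 1 rose and 0 fell (1.23%, against 0.435% of all tested genes), and 8 had an unadjusted p under 0.05 (9.88%, against 9.14%). Their median log2 fold change was -0.053, with 33 above 0 and 48 at or below it. Among 25 tested assembly factors with other names 0 passed, and their median was -0.059. Ttc19, a factor of complex III, and Timmdc1, a factor of complex I, had the smallest p, with log2 fold changes of -0.51 ± 0.16 and -0.56 ± 0.22 (SE; adjusted p = 0.341 and 0.456 in limma). Both probes were above background on 1 homozygous array and on 3 wild-type arrays. Of 11 electron carriers and other inputs to ubiquinone 0 passed. Etfb, a subunit of the electron transfer flavoprotein of fatty acid oxidation, had -0.30, and Coq7, an enzyme of ubiquinone synthesis, had 0.38. The inhibitor of ATP synthase Atpif1 had -0.17.

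The citric acid cycle, which supplies NADH and succinate, held 11 tested genes and 0 passed, with a median of -0.063. Suclg1, a subunit of succinyl-CoA ligase, had -0.25, and Ogdh, of the oxoglutarate dehydrogenase complex, had -0.33. Of 5 carriers and pores 0 passed, and Slc25a5, an exchanger of ADP and ATP, had -0.25 while the outer membrane pore Vdac3 had 0.33. Protein import held 11 tested genes and 0 passed. Tomm22, a receptor of the outer membrane, had values of 6.74, 6.88 and 6.63 in homozygous lenses, against 7.09, 7.34 and 7.17 in wild-type lenses. Its groups did not overlap and its adjusted p was 0.399 in limma.

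Regulators of mitochondrial biogenesis held 8 tested genes and 0 passed. Gabpb1, the partner of the DNA-binding factor GABPA, had 5.75, 5.44 and 5.54 in homozygous lenses, against 5.15, 5.15 and 4.92 in wild-type lenses, without overlap and with an adjusted p of 0.404 in limma. Tfam, which packages mitochondrial DNA and helps to start its transcription, had -0.20. In the list of the hypoxia switch of respiration 1 of 8 tested genes rose. This was Hif1a, the oxygen-regulated transcription factor subunit, with 6.00, 6.21 and 6.24 in homozygous lenses, against 5.11, 4.64 and 5.30 in wild-type lenses. Its log2 fold change was 1.13 ± 0.21 (SE; adjusted p = 0.0432 in limma), and its probe was above background on 3 homozygous and 2 wild-type arrays. The call was lost in 11 of 19 other settings, among them the removal of any 1 homozygous array or of wild-type replicate 2 or 3, and the adjusted p ran from 0.00503 to 0.265 over the 19. Pdk1, an enzyme that restrains the entry of pyruvate into the citric acid cycle and a target of that factor, had -0.17 and did not pass. Cox4i2, a complex IV subunit that replaces Cox4i1 in low oxygen, was above background on 0 arrays.

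The promoters of the members share sequence features that the choice by symbol did not use. Windows of 250 bases before to 50 bases after the start were taken from RefSeq (GRCm38.p6) for 74 of the 90 members, 79 windows in all, and searched on both strands for 3 motifs. NRF1, a factor known for driving nuclear genes of the respiratory chain, was searched as GCGCANGCG, and 27.8% of member windows held it, against 6.25% of all 32851 windows. The ETS motif bound by GABPA, CCGGAAG, was in 25.3% of member windows and 8.86% of all windows. The YY1 motif AAGATGGCG was in 8.86% of member windows and 1.4% of all. Member windows were also richer in G and C, with a median of 57.7% against 52.7%. A match is a description of these letters and not a bound site, and 39 of the 74 genes held at least 1 of the motifs.

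One promoter of each complex is shown, to let the shared motifs be seen in place. Each of those shown holds an NRF1 or ETS match, which not all members do, and none holds a YY1 match. Each is the 250 bases before the start, 5′ to 3′ on the gene's strand in the GRCm38.p6 build from RefSeq, in lower case with the motif matches in capitals. CTTCCGG and CGCCTGCGC are matches read from the other strand. In Ndufs6 the NRF1 match begins 15 bases before the start, and in Atp5c1 17 bases. Another annotated window of Atp5c1, not shown, held no match in its 250 bases before the start. The Cox6a1 promoter holds an ETS match and 3 NRF1 matches, of which a pair overlap, and the Sdhd promoter holds 1 of each.
Ndufs6 (chr13:73328483-73328732, minus strand): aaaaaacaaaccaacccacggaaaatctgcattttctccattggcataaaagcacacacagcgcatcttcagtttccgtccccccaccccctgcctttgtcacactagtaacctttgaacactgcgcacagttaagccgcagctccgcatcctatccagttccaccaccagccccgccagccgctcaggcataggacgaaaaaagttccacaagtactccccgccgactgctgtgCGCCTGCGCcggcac
Sdhd (chr9:50603850-50604099, minus strand): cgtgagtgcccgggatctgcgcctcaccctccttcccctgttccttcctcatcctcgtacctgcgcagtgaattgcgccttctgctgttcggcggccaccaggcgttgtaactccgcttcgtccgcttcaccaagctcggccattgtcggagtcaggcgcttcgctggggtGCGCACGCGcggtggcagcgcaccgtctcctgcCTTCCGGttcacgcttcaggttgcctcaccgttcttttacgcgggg
Uqcrh (chr4:116075071-116075320, minus strand): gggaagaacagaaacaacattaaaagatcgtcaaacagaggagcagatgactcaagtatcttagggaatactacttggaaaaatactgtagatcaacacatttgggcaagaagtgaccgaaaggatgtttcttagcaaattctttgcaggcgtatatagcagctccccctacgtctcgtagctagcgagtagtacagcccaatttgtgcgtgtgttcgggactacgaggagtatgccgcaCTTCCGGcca
Cox6a1 (chr5:115348959-115349208, minus strand): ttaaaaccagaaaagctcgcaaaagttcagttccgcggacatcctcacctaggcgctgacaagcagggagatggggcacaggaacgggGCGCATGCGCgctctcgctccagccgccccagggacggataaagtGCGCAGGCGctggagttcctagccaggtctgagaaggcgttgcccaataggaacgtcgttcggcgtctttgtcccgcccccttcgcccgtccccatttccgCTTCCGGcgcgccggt
Atp5c1 (chr2:10080433-10080682, minus strand): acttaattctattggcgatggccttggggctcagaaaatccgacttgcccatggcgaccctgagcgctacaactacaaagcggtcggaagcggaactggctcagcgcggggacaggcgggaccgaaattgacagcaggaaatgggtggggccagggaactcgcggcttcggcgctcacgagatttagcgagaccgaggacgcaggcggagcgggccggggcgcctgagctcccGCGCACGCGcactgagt

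The log2 fold changes of the 5 genes shown were -0.026 for Ndufs6, -0.093 for Sdhd, 0.036 for Uqcrh, 0.12 for Cox6a1 and -0.24 for Atp5c1. None passed the test, and the Sdhd probe was above background on 1 homozygous array and on 3 wild-type arrays. Other members with a match in the window include Atp5l, which holds NRF1 and ETS matches and had -0.37, and Sdhaf2, which holds an ETS match and had 0.30. Members with and without a match were not compared.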

How the data were processed

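Per the labels' protocols, Trizol extraction and an RNeasy clean-up gave the lens RNA, from which biotinylated cRNA was made with Ambion's MessageAmp kit. The deposited table holds a linear signal intensity per probe, neither background-subtracted nor normalized per the file headers and the values, with a deposited detection p-value. The authors' processed intensity table, normalized by a method not given in the sources used here, served as an alternative. The submitters' processing notes list GenomeStudio 2011.1; slide and scan were not used here. Background was corrected with limma 3.58.1 in R 4.3.3 (normal-exponential, negative controls inferred from detection p-values, offset 16), arrays were quantile normalized and log2 taken. Probes with detection p under 0.05 on at least 3 of 6 arrays were tested (8618 probes, 6430 genes, brightest probe per gene) with lmFit and eBayes with a trend, two-sided, Benjamini-Hochberg adjusted over all tested probes. Symbols came from the platform annotation, and all 90 members matched RefSeq gene identifiers. The scripts were tested on simulated data. Replicate numbers were not used as pairs: deviations of same-numbered arrays correlated at 0.19, 0.185 and -0.027. The members and lists were chosen with earlier results of these data known. Members named are, per complex, the 4 of smallest p (all of complex II), the 2 of highest level and the isoform pairs; others were chosen after their values were seen. Precision is limited by the number of arrays.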

Additional observations from a re-analysis of the deposited data

How the results depend on the processing

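With normalization between arrays, 0 members passed under any alternative. Over 663 fits of the 35 named members the lowest adjusted p was 0.0675, with 42 changes of sign. All tested genes gave 28 calls, 17 without background correction, 18 with an offset of 50, 6 with probes detected on all arrays, 18 with the mean over probes, 16 without a trend, 60 with array weights and 17 with sex as a covariate. The fit with the replicate block gave 102 and changed no member's call; replicates 1 and 2 correlated best with their own number and replicate 3 did not. Without normalization there were 1320 calls and 34 members, 54 members without overlap, and medians of -0.44 for the members and -0.42, -0.44, -0.53, -0.48 and -0.36 for complexes I to V. Median centring gave medians of -0.051 for the members, -0.14 for complex III and -0.093 for complex IV, against 0.030 for all tested genes. The members' median minus that of all tested genes was -0.081 under median centring, -0.081 without normalization and -0.008 after quantile normalization. Complex IV also stood at -0.050 under cyclic loess, -0.058 with the authors' processed values, -0.042 without the filter and -0.021 with probes detected on all arrays. Leaving out 1 array gave 9 to 72 calls over all genes (72 without wild-type replicate 1), 0 among members, 11 to 24 members without overlap, fewer arrays overlapping less by construction, and medians of -0.011 to 0.030 for the members, -0.10 to 0.061 for complex II and -0.037 to 0.0066 for complex IV.

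Signs turned for these log2 fold changes, each with its value. Under median centring these were Atp5b -0.050, Cox6b1 -0.0045, Ndufa4 -0.074, Ndufc1 -0.039, Sdhd 0.15 and Uqcrh -0.11. Under cyclic loess they were Atp5b -0.037, Ndufa4 -0.035 and Uqcrh -0.077. With the authors' processed values they were Ndufa13 0.0054, Ndufa4 -0.058, Ndufc1 -0.027 and Uqcrh -0.10. With the mean over probes they were Ndufc1 -0.036, Sdhb 0.048 and Uqcr10 0.042. With array weights they were Cox4i1 0.0042, Cox7a1 -0.026, Sdhaf1 0.039 and Sdhaf3 0.16. With sex as a covariate this was Uqcr10 0.0078. Without normalization they were Atp5b -0.44, Atp5j -0.33, Atp5pb -0.22, Cox6a1 -0.38, Cox6b1 -0.39, Cox7a1 -0.10, Cox7a2 -0.32, Cox7a2l -0.38, Ndufa1 -0.13, Ndufa12 -0.22, Ndufa4 -0.46, Ndufc1 -0.43, Sdhaf2 -0.13, Sdhc -0.30, Uqcrb -0.23 and Uqcrh -0.50. Leaving out 1 array gave ranges of Atp5b -0.0064 to 0.056, Cox4i1 -0.057 to 0.023, Cox6a1 -0.0073 to 0.20, Cox6b1 -0.057 to 0.12, Cox7a1 -0.11 to 0.23, Cox7a2 -0.025 to 0.18, Cox7a2l -0.10 to 0.25, Cox8a -0.077 to 0.0041, Ndufa4 -0.026 to 0.15, Ndufc1 -0.028 to 0.18, Sdhaf1 -0.14 to 0.061, Sdhaf3 -0.26 to 0.12, Sdhb -0.20 to 0.11, Sdhd -0.21 to 0.0093, Uqcr10 -0.19 to 0.014 and Uqcrh -0.036 to 0.14. The cause was not tested. With 3 arrays a group and signals near background for 15 members, precision was limited.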
